A study of Homo sapiens with 2 samples.

Results

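The genes described here are members of the cadherin superfamily and genes of cell junctions, read in HES2 cells that carried an shRNA against TFCP2L1 or a scrambled control. They were picked out by their symbols, as rows of the authors' deposited gene table whose symbol belongs to the families of cadherins, protocadherins, desmosomal proteins, claudins and other tight junction proteins, connexins and pannexins, nectins or CADM proteins. The rule found 39 of the 2005 rows, and 11 of them belong to the gamma protocadherin (PCDHG) cluster and are described apart.

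HES2 is an established human embryonic stem cell line. Cells were infected with a lentivirus for Tfcp2l1 knockdown or with the scrambled control, and both groups went through 3 passages in medium that held 10% KSR, a serum replacement, with Activin A and FGF2, both at 10 ng/ml. The target, TFCP2L1, is a DNA-binding factor related to grainyhead proteins. There was 1 RNA-seq library per group, so no difference has a replicate check, no p-value is given for the conditions, and every comparison is between these 2 libraries.

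Cadherins are calcium-dependent adhesion proteins that hold neighbouring cells together, mostly by binding the same cadherin on the next cell. Classical cadherins form adherens junctions with catenins, desmosomal cadherins tie the intermediate filaments of neighbouring cells together through desmoplakin, and claudins seal the space between epithelial cells in tight junctions. A change from E-cadherin to N-cadherin is known to accompany gastrulation, when cells of the epiblast pass through the primitive streak. Clustered protocadherins carry single-cell identity in neurons: each gamma transcript joins a variable exon of its own to constant exons that the whole cluster shares.

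Levels are in FPKM, reads scaled by gene length and library size, as read from the deposited values. Ratios are the knockdown over the scramble level. The libraries held about 22700000 (knockdown) and 23500000 (scramble) reads, as inferred from the deposited values. Whole reads could be inferred for 27 of the 39 members, and their ratios carry an exact (Clopper-Pearson) 95% interval that covers counting error only. For the other 12 members the ratio of FPKM is given without an interval. Rows are limited to genes past the authors' thresholds on size and false discovery rate, so every member differs at least 2-fold in FPKM by construction, and genes with no row are not analysed here.

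TFCP2L1 was at 0.33 FPKM in the knockdown library, against 3.19 FPKM in the scramble library. On 69 (knockdown) and 692 (scramble) inferred reads it was 9.70-fold lower (interval 7.56 to 12.6). Marker genes were looked up, but they cannot check the label of the cells, since only genes past the authors' thresholds have a row. SOX2 was at 86.1 FPKM in the knockdown library, against 180.5 FPKM in the scramble library, while POU5F1 and NANOG are without a row and not analysed here. Of 10 pluripotency markers 4 had a row, all lower, with summed levels of 198 FPKM (knockdown) and 534 FPKM (scramble). Markers of other cell types moved with the groups: 6 of 8 primitive streak markers had a row, all higher, with summed levels of 789 (knockdown) and 4.13 FPKM (scramble), and 8 of 8 definitive endoderm markers were higher, with summed levels of 958 (knockdown) and 8.53 FPKM (scramble). Of 5 trophectoderm and amnion markers 0 had a row. SOX17 was at the table's floor of 0.01 FPKM in the scramble library, which stands for values at or near 0. The part of these cell types in the results on adhesion genes was not tested, and in bulk RNA a change in the share of cells and a change of RNA per cell cannot be told apart.

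Of the 39 members, 25 (64.1%) were higher and 14 (35.9%) lower in the knockdown library, against 54.1% higher and 45.9% lower over all rows of the table. Rows higher in the knockdown library make up 5.86%, and rows lower in it 4.98%, of 18489 genes tested by the authors, as inferred from their p-values. A rule of size then counted members that reached 1 FPKM in either library and stood at least 2-fold apart after adding 0.1 FPKM to each level. By this rule 16 members (41.0%) were higher, near the 40.8% of all rows, and 9 members (23.1%) were lower, against 35.4% of all rows. These shares also depend on how many rows reached 1 FPKM, 25 of the 39 members against 1587 of all 2005 rows. Of the 16 higher members, 8 belong to the PCDHG cluster, and without members that share over 20% of their sequence words with another gene the count was 7.

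The PCDHG cluster lies on chromosome 5 and held the member with the highest ratio. Its genes fall into A, B and C types by the sequence of the variable exon. RefSeq annotates 22 PCDHG genes, of which 11 had a row. Among the 18489 genes tested by the authors, 5.86% had a row as higher and 4.98% as lower. Of the 11 PCDHG rows 9 (81.8%) were higher and 2 (18.2%) lower, against 54.1% higher and 45.9% lower over all rows. The higher ones were all 5 rows of the B type, all 3 of the C type and 1 of the A type. Both lower rows were of the A type. The C-type genes are the last variable exons before the constant exons, and in neurons they are known to be expressed by rules of their own.

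The sequences around the junction of variable and constant exons show what the PCDHG rows share and what tells them apart. Below, the last 30 bases of the variable exon are in lower case and the first 30 bases of the constant exons in capitals, from the GENCODE transcript nearest in length to the deposited length, for 1 gene of each type on chromosome 5.
PCDHGC4: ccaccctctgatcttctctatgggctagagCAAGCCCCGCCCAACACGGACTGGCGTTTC
PCDHGB7: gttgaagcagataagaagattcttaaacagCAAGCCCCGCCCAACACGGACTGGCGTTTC
PCDHGA12: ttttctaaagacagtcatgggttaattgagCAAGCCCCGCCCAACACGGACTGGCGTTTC
The capitals are identical in all 11 rows, and at least 2179 bases after the junction were the same in every pair. Only the variable exon can place a read, and reads in the constant exons cannot be assigned to a gene by sequence. Parts of some variable exons also occur in another gene. In PCDHGB4, 2861 of 4548 words of 31 bases do so, while only 2181 bases follow its variable exon. Of the 31-base words of each matched transcript, 45.5 to 63.9% also occur in another gene, except in PCDHGC3. For PCDHGC3 it is 92.9%, because its deposited length of 2413 bases is nearest to a short transcript of 2346 bases whose variable part has 167 bases. In the longest PCDHGC3 transcript, of 4725 bases, 45.9% of words are shared. All PCDHG levels are therefore uncertain, and that of PCDHGC3 most. Rows may also share reads, so a direction that several rows have in common is not a set of independent results.

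PCDHGC3 was at 18.0 FPKM in the knockdown library, against 0.67 FPKM in the scramble library, a ratio of FPKM of 26.8. No pair of whole reads matched its deposited values, so the ratio has no interval. PCDHGC4 was at 4.67 (knockdown) and 1.06 FPKM (scramble), a ratio of FPKM of 4.41. PCDHGC5 was at 1.30 FPKM in the knockdown library, against 0.27 FPKM in the scramble library, with 136 (knockdown) and 29 (scramble) reads, a ratio of 4.85 (interval 3.23 to 7.51). The C-type genes had the 3 highest ratios of the cluster, and those of PCDHGC4 and PCDHGC5 differ by less than the counting interval of PCDHGC5.

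The B-type genes were all higher, with ratios of FPKM of 2.12 to 3.36. PCDHGB7 was the most abundant PCDHG row in the scramble library, at 7.75 FPKM (knockdown) and 3.66 FPKM (scramble), and it had the lowest ratio of FPKM of the higher rows, 2.12. PCDHGB4 was at 6.25 (knockdown) and 1.86 FPKM (scramble), a ratio of FPKM of 3.36. PCDHGB5 was at 5.25 (knockdown) and 1.87 FPKM (scramble), a ratio of FPKM of 2.81. Neither PCDHGB4, PCDHGB5 nor PCDHGB7 had a matching pair of whole reads. PCDHGB6, at 3.01 (knockdown) and 1.23 FPKM (scramble), had 310 (knockdown) and 130 (scramble) reads, a ratio of 2.47 (interval 2.003 to 3.05). PCDHGB1, at 0.86 (knockdown) and 0.26 FPKM (scramble), had 89 (knockdown) and 27 (scramble) reads, a ratio of 3.41 (interval 2.19 to 5.46). Of the exon bases of PCDHGB1, 8.8% overlap a gene on the other strand.

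The A-type genes went both ways. PCDHGA10 was at 5.52 FPKM in the knockdown library, against 2.07 FPKM in the scramble library, with 566 (knockdown) and 221 (scramble) reads and a ratio of 2.65 (interval 2.26 to 3.11). PCDHGA7 was at 0.09 (knockdown) and 0.36 FPKM (scramble), on 9 (knockdown) and 39 (scramble) reads, which made it 4.19-fold lower (interval 1.996 to 9.84). PCDHGA12 was at 0.22 (knockdown) and 0.58 FPKM (scramble), on 23 (knockdown) and 63 (scramble) reads, 2.65-fold lower (interval 1.62 to 4.47). Both lower rows stood between higher rows in the order of the cluster, and both were below 1 FPKM in each library.

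**Figure D1:**
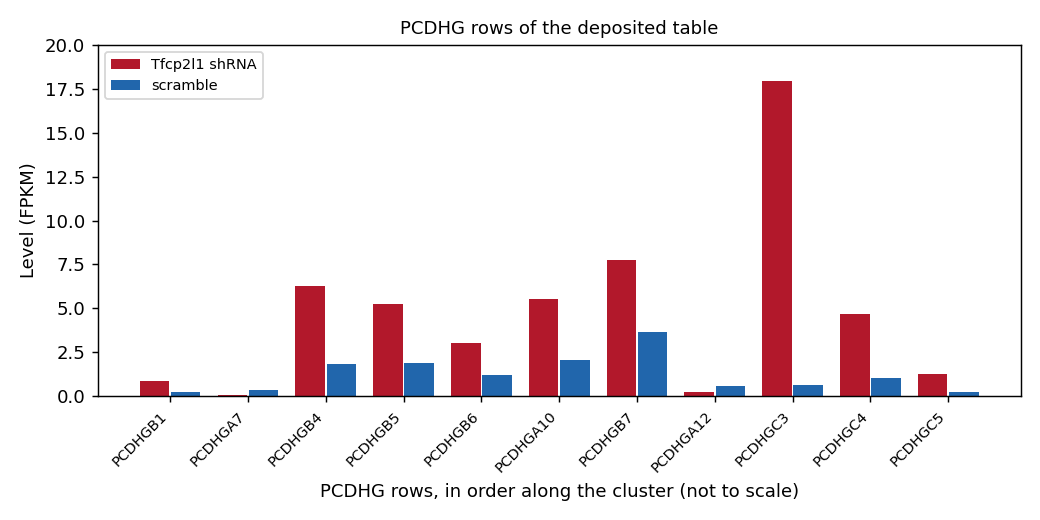
Levels of the 11 PCDHG rows in FPKM, in their order along the cluster, with a red bar for the Tfcp2l1 shRNA library and a blue bar for the scramble library (1 library each, no error bars). PCDHGC3 stands highest in the knockdown library at 18.0 FPKM, and PCDHGA7 and PCDHGA12 are the rows in which the blue bar is the higher one.

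Summed over the 11 rows, PCDHG levels were 52.9 FPKM in the knockdown library and 13.9 FPKM in the scramble library, a ratio of 3.81. Without PCDHGC3 the sums were 34.9 (knockdown) and 13.2 FPKM (scramble), a ratio of 2.64. The median log2 ratio of the cluster was 1.41 with a pseudocount of 0.1 FPKM, and 1.39 without PCDHGC3. Over all rows it was 1.01, a value set by the gap around 0 in the table, so the medians make no comparison. The shares that follow are of these 11 rows only, since the other 11 annotated PCDHG genes had no row. C-type rows held 45.3% of the summed level in the knockdown library and 14.4% in the scramble library, and PCDHGC3 alone held 34.0% (knockdown) and 4.82% (scramble). B-type rows held 43.7% (knockdown) and 63.9% (scramble), and A-type rows 11.02% (knockdown) and 21.7% (scramble). Without PCDHGC3, C-type rows held 17.1% (knockdown) and 10.06% (scramble), and B-type rows 66.2% (knockdown) and 67.2% (scramble), so most of the difference in the C-type share rested on that uncertain row. Since the constant exons are shared, these shares also depend on how the authors' counting placed shared reads, which is not given in the sources used here.

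**Figure D2:**
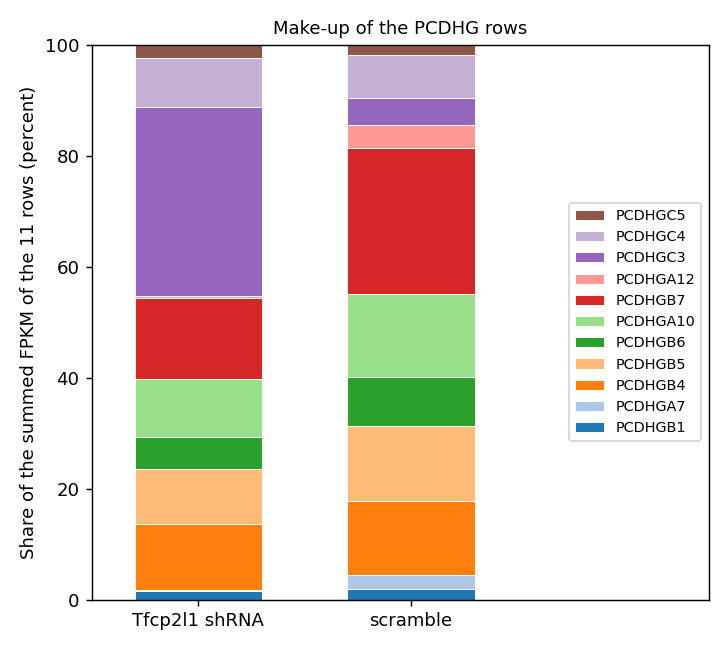
Share of the summed FPKM of the 11 PCDHG rows held by each row, in percent, in the Tfcp2l1 shRNA library (left) and the scramble library (right), stacked in order along the cluster from the bottom up. PCDHGC3 takes 34.0% in the knockdown library and 4.82% in the scramble library, and PCDHGB7 takes 14.7% (knockdown) and 26.4% (scramble).

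Promoters of the cluster, of whose 11 rows 9 were higher, were searched for a stretch that its members share. Since the rows share sequence and may share reads, these 9 are not 9 independent results. Clustered protocadherin promoters are known to carry a conserved element with the core CGCT, to which the factor CTCF binds. The letters CGCTGT were taken from words that the PCDHG promoters share, so how often they occur in this cluster is given as a description. RefSeq promoter windows (GRCh38.p14, 250 bases before to 50 after the gene start) were found for 9 of the 11 rows, and none for PCDHGA12 and PCDHGC5. CGCTGT was present in 8 of these 9 (88.9%), in the direction of the gene, and in 17 of 20 PCDHG promoters. On both strands, 13.3% of the promoters of 27305 genes hold it, and 29.6% of 27 PCDHA and PCDHB promoters do. The 60-base windows below, on the plus strand of the reference, show it in capitals for the highest row, for 1 B-type row, for the higher A-type row and for a lower A-type row.
PCDHGC3 at chr5:141475869-141475928: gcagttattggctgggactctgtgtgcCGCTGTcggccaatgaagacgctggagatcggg
PCDHGB4 at chr5:141387606-141387665: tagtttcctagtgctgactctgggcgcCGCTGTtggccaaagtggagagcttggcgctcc
PCDHGA10 at chr5:141412920-141412979: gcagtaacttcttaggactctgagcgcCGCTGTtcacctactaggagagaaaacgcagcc
PCDHGA7 at chr5:141382638-141382697: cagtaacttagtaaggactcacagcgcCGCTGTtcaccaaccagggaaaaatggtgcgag
Relative to the first annotated gene start, where negative positions lie before it, the match began at -70 in PCDHGC3, -65 in PCDHGB4, -40 in PCDHGA10 and -77 in PCDHGA7. Higher and lower rows both hold it. PCDHGB7, which was higher, has no match in its window. CTCF had no row.

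The other clustered protocadherins had fewer rows. Of 31 annotated PCDHA and PCDHB genes 5 had a row. Of these, 3 (60%) were higher and 2 (40%) lower, near the 54.1% higher and 45.9% lower of all rows. PCDHA10 was at 4.62 FPKM in the knockdown library, against 2.12 FPKM in the scramble library, a ratio of FPKM of 2.18, and the C-type gene PCDHAC2 was at 0.33 (knockdown) and 1.04 FPKM (scramble), 3.15-fold lower. Both of these alpha transcripts share constant exons in the same way, with 61.9% (PCDHA10) and 51.7% (PCDHAC2) of words in another gene, and neither had a matching pair of whole reads. PCDHA8 at 0.71 (knockdown) and 0.20 FPKM (scramble) had 39 (knockdown) and 11 (scramble) reads, a ratio of 3.67 (interval 1.84 to 7.94), with 40.8% of words shared. The beta genes have no constant exons. PCDHB6 was higher at 0.75 (knockdown) and 0.28 FPKM (scramble), on 55 (knockdown) and 21 (scramble) reads, and PCDHB4 was lower at 0.41 (knockdown) and 0.85 FPKM (scramble), on 35 (knockdown) and 76 (scramble) reads, with 20.6% (PCDHB6) and 20.4% (PCDHB4) of words shared. Within the alpha cluster the only listed C-type gene was thus lower, whereas in the gamma cluster all 3 C-type rows were higher. This contrast rests on 1 alpha row without an interval, and the gamma rows may share reads.

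Outside the PCDHG cluster 28 members had a row, 16 (57.1%) higher and 12 (42.9%) lower, against 54.1% higher and 45.9% lower over all rows. At 1 FPKM or more there were 17, of which the rule of size counted 8 as higher and 9 as lower. Of the 28 these were 28.6% (higher) and 32.1% (lower), against 40.8% (higher) and 35.4% (lower) of all rows. These shares also depend on how many rows reached 1 FPKM, 17 of the 28 members against 1587 of all 2005 rows. Of those 1587 rows, 819 counted as higher and 710 as lower. The median log2 ratio of the members outside the cluster was 1.06 over all 28 and -1.21 over the 17. The table holds no ratio near 0, and the median falls on either side of that gap. The median is therefore no summary of these genes, which are given by role.

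**Figure D3:**
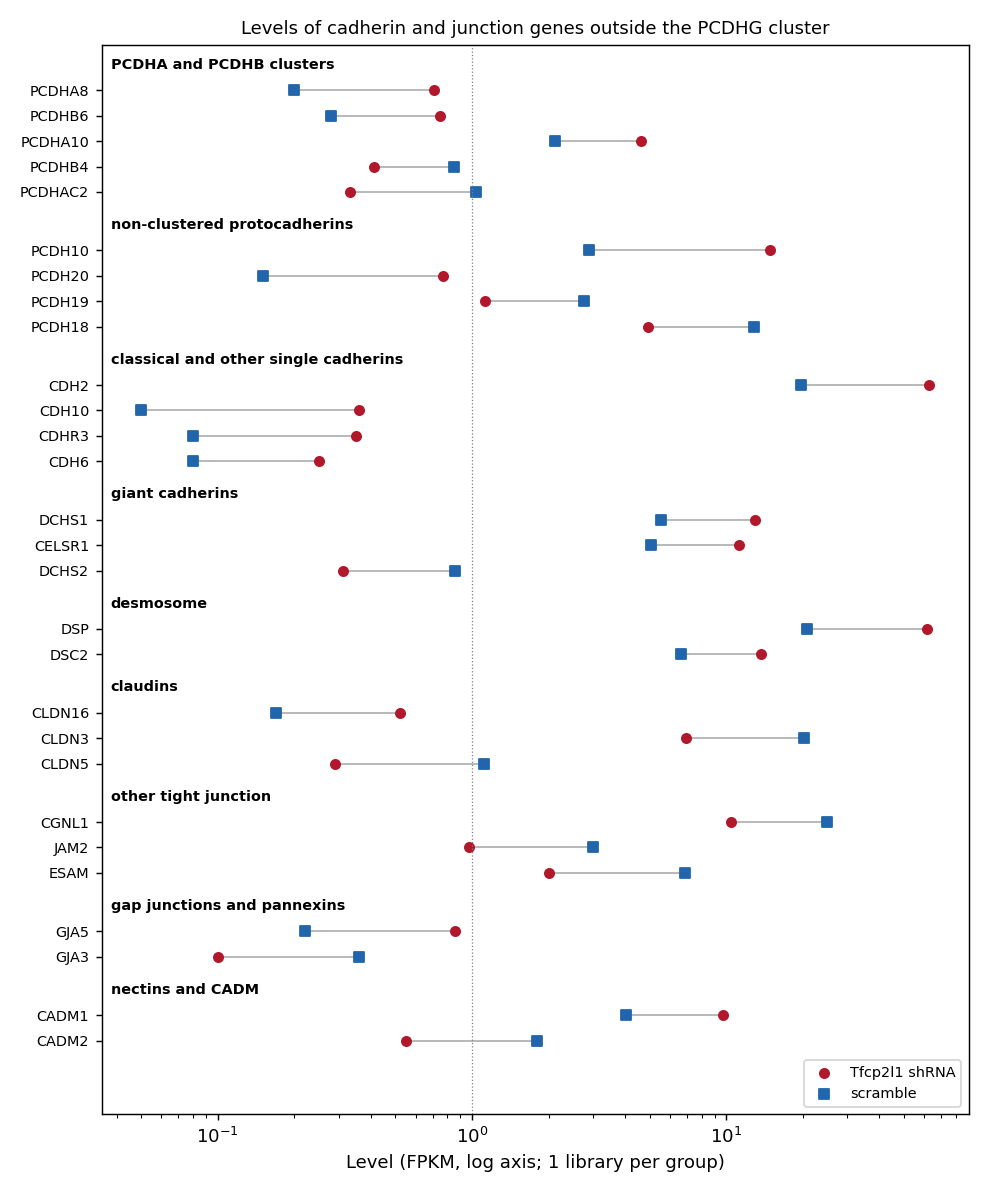
Levels of the 28 members outside the PCDHG cluster in FPKM on a log axis, grouped by role, with a red circle for the Tfcp2l1 shRNA library, a blue square for the scramble library and a dotted line at 1 FPKM. CDH2 and DSP are the most abundant in the knockdown library, at 62.8 and 61.4 FPKM, and all tight junction genes except CLDN16 have the square to the right.

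All 4 listed cadherins of the CDH and CDHR families were higher, against 54.1% of all rows, and 24 of the 28 annotated genes had no row. Only CDH2 passed the rule of size. CDH2, N-cadherin, the classical cadherin of mesoderm and neural tissue, was at 62.8 FPKM in the knockdown library, against 19.7 FPKM in the scramble library, a ratio of FPKM of 3.18. About 5808 (knockdown) and 1887 (scramble) reads stood behind these levels, as estimated from the FPKM. CDH2 was the most abundant member in the knockdown library and the fourth most abundant in the scramble library, after CGNL1, DSP and CLDN3. Beside the streak markers above, 1 of 4 neural markers had a row, NES, which was higher at 251.8 (knockdown) and 95.9 FPKM (scramble). Of 8 mesenchyme and fibroblast markers 2 had a row, TWIST1, which was higher, and COL1A1, which was lower at 24.4 (knockdown) and 110.2 FPKM (scramble). The part of such cells in the level of CDH2 was not tested. The other listed cadherins stayed under 1 FPKM in both libraries. CDH10, a type II cadherin known from brain, was at 0.36 (knockdown) and 0.05 FPKM (scramble), on 29 (knockdown) and 4 (scramble) reads (ratio 7.50, interval 2.63 to 29.4). CDH6, a type II cadherin known from kidney and neural crest, was at 0.25 (knockdown) and 0.08 FPKM (scramble), on 50 (knockdown) and 15 (scramble) reads (ratio 3.45, interval 1.90 to 6.61). CDHR3, a cadherin-related receptor of airway epithelium, was at 0.35 (knockdown) and 0.08 FPKM (scramble), on 50 (knockdown) and 12 (scramble) reads (ratio 4.31, interval 2.26 to 8.89). CDH1, which encodes E-cadherin, had no row and is not analysed here.

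Both listed desmosome genes were higher, against 54.1% of all rows, and both were well expressed. DSP, desmoplakin, which anchors intermediate filaments to the desmosome, was at 61.4 FPKM in the knockdown library, against 20.9 FPKM in the scramble library, a ratio of FPKM of 2.94 on an estimated 12936 (knockdown) and 4546 (scramble) reads. DSC2, a desmosomal cadherin, was at 13.7 (knockdown) and 6.67 FPKM (scramble), with 1603 (knockdown) and 808 (scramble) reads and a ratio of 2.05 (interval 1.88 to 2.24). The interval of DSC2 includes 2, so its place above 2-fold is not settled by counting. The other 10 of 12 annotated desmosome genes of the rule had no row.

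Of 6 listed tight junction members, claudins included, 5 were lower, against 45.9% of all rows, while 23 of 26 annotated claudins and 8 of 11 other tight junction genes of the rule had no row. By the rule of size 5 of the 6 (83.3%) counted as lower, against 35.4% of all rows. Claudins and other tight junction genes were set out as separate role groups and are pooled here. Taken apart, 2 of 3 claudins and 3 of 3 other tight junction genes were lower. The summed level of the 6 was 21.15 FPKM in the knockdown library and 56.2 FPKM in the scramble library, a ratio of 0.376. CLDN3 and CGNL1 made up most of this sum in both libraries. CLDN3, a sealing claudin of epithelia, was at 6.94 FPKM in the knockdown library, against 20.2 FPKM in the scramble library, with 197 (knockdown) and 591 (scramble) reads, and was 2.90-fold lower (interval 2.46 to 3.43). CGNL1, paracingulin, a cytoplasmic protein of apical junctions, was at 10.4 (knockdown) and 24.9 FPKM (scramble), with 1697 (knockdown) and 4189 (scramble) reads, and was 2.39-fold lower (interval 2.26 to 2.53). It was the most abundant member in the scramble library.

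The remaining lower tight junction genes are known from endothelium as well as epithelium. ESAM, an adhesion molecule named for endothelial cells, was at 2 FPKM in the knockdown library, against 6.87 FPKM in the scramble library, on 82 (knockdown) and 290 (scramble) reads, 3.42-fold lower (interval 2.67 to 4.42). JAM2, a junctional adhesion molecule, was at 0.97 (knockdown) and 3 FPKM (scramble), 3.09-fold lower by FPKM. CLDN5, the main claudin of endothelium, was at 0.29 (knockdown) and 1.11 FPKM (scramble), on 11 (knockdown) and 43 (scramble) reads, 3.78-fold lower (interval 1.92 to 8.13). Of 5 endothelial markers 2 had a row, ESAM itself and TIE1, and TIE1 was lower too, at 1.04 (knockdown) and 5.39 FPKM (scramble), 5.17-fold (interval 4.13 to 6.52). PECAM1, CDH5 and KDR had no row, and the part of endothelial cells was not tested. CLDN16, a claudin of kidney that conducts magnesium between cells, was the higher member, at 0.52 (knockdown) and 0.17 FPKM (scramble) on 39 (knockdown) and 13 (scramble) reads (ratio 3.10, interval 1.62 to 6.34).

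The giant cadherins DCHS1 and CELSR1 were higher. DCHS1, the human counterpart of fly dachsous and partner of the cadherin FAT4, was at 12.95 FPKM in the knockdown library, against 5.55 FPKM in the scramble library, with 3146 (knockdown) and 1394 (scramble) reads and a ratio of 2.33 (interval 2.19 to 2.49). CELSR1, a seven-pass cadherin of planar cell polarity, was at 11.25 (knockdown) and 5.06 FPKM (scramble), with 2976 (knockdown) and 1396 (scramble) reads and a ratio of 2.20 (interval 2.07 to 2.35). Both intervals lie wholly above 2. DCHS2 was the lower one, at 0.31 (knockdown) and 0.86 FPKM (scramble), on 46 (knockdown) and 127 (scramble) reads, 2.67-fold lower (interval 1.89 to 3.83). Of the exon bases of DCHS1, 9.4% overlap exons of genes on the other strand, and whether the authors counted by strand is not given in the sources used here.

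The non-clustered protocadherins split evenly. PCDH10, PCDH18 and PCDH19 belong to the same subfamily, the delta-2 protocadherins, which bind regulators of actin at their cytoplasmic ends. PCDH10 was at 14.9 FPKM in the knockdown library, against 2.89 FPKM in the scramble library, a ratio of FPKM of 5.17, the highest of the members at 1 FPKM or more outside the PCDHG cluster. PCDH18 was at 4.92 (knockdown) and 12.9 FPKM (scramble), with 655 (knockdown) and 1774 (scramble) reads, 2.62-fold lower (interval 2.39 to 2.87). PCDH19, an X-linked gene of an epilepsy syndrome, was at 1.13 (knockdown) and 2.75 FPKM (scramble). For it 2 pairs of whole reads matched, and the pair nearest to the levels is given. On 245 (knockdown) and 617 (scramble) reads it was 2.43-fold lower (interval 2.10 to 2.84). In the knockdown library PCDH10 was thus above PCDH18, and in the scramble library PCDH18 was above PCDH10. PCDH20 was at 0.77 (knockdown) and 0.15 FPKM (scramble), on 83 (knockdown) and 17 (scramble) reads (ratio 5.05, interval 2.97 to 9.08), and is uncertain because 95.8% of its words also occur in another GENCODE gene, AL592490.1.

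The remaining families had 1 member in each direction. CADM1, an immunoglobulin-type adhesion molecule of epithelia and synapses, was at 9.73 FPKM in the knockdown library, against 4.02 FPKM in the scramble library, with 944 (knockdown) and 402 (scramble) reads and a ratio of 2.43 (interval 2.16 to 2.74). Its relative CADM2 was at 0.55 (knockdown) and 1.81 FPKM (scramble), 3.29-fold lower by FPKM. Among connexins, the subunits of gap junctions, GJA5 was higher at 0.86 (knockdown) and 0.22 FPKM (scramble), on 62 (knockdown) and 16 (scramble) reads (ratio 4.01, interval 2.28 to 7.44). Of the exon bases of GJA5, 21.0% overlap a gene on the other strand. GJA3 was lower at 0.10 (knockdown) and 0.36 FPKM (scramble), on 12 (knockdown) and 43 (scramble) reads (3.46-fold, interval 1.79 to 7.22). Both connexins were under 1 FPKM in each library, and the other 21 of 23 annotated connexin and pannexin genes had no row.

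**Figure D4:**
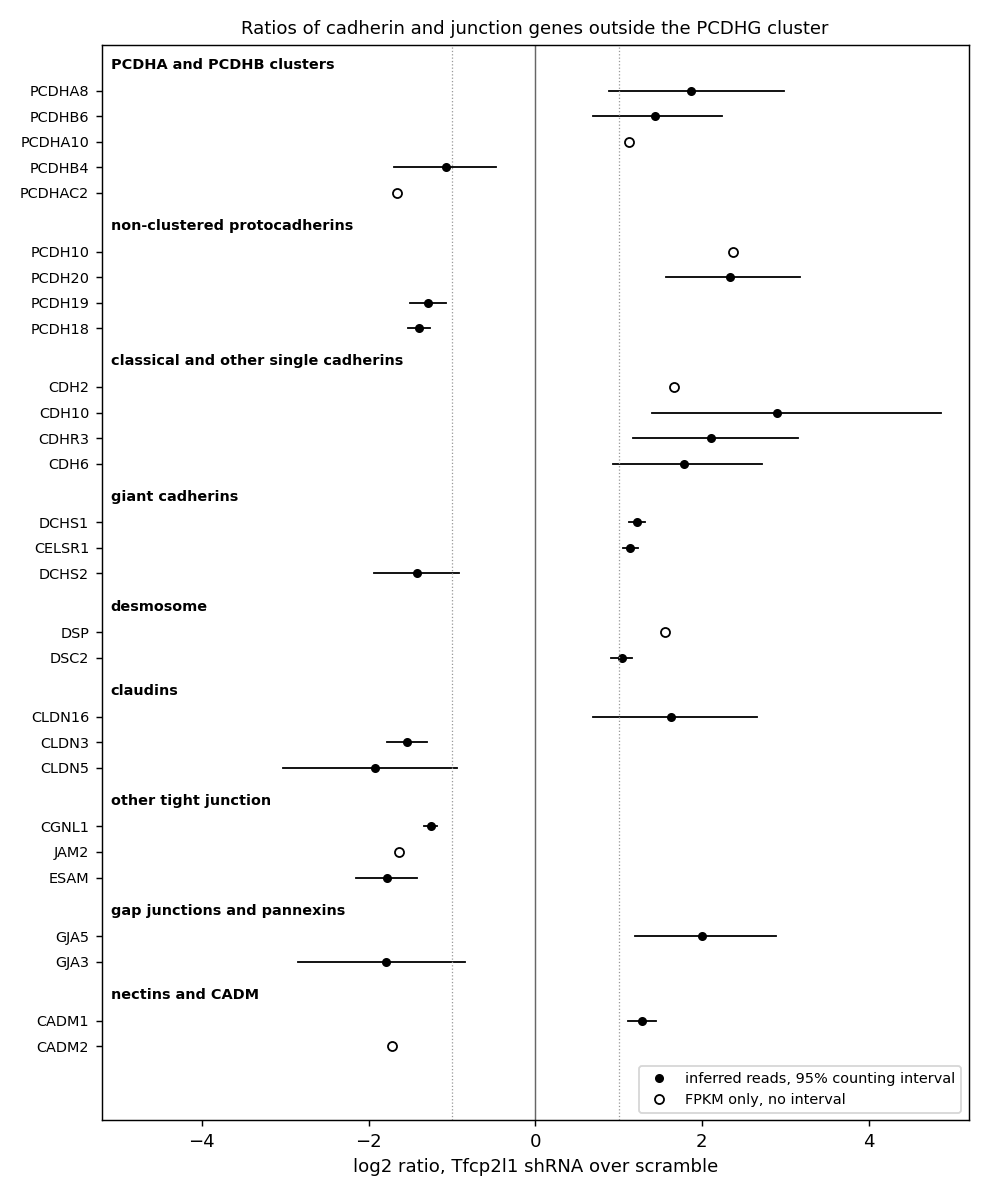
Log2 ratio of the Tfcp2l1 shRNA over the scramble library for the 28 members outside the PCDHG cluster, grouped by role, with a filled circle and a line for the ratio of inferred reads and its 95% counting interval, and an open circle for a ratio of FPKM without an interval. The dotted lines mark 2-fold, no interval crosses 0, and 12 of the 21 intervals lie wholly beyond 2-fold.

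Every one of the 27 intervals excluded a ratio of 1, as selection into the table would give, and 16 lay wholly beyond 2-fold. Of the 25 members at 1 FPKM or more, 6 higher and 5 lower ones had an interval wholly beyond 2-fold.

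The other genes of junctions, from a list of 47 symbols outside the rule, had few rows. The catenins that bind classical cadherins in most tissues, CTNNA1, CTNNB1, CTNND1 and JUP, and EPCAM had none. CTNNA2, the alpha-catenin of neurons, was at 0.70 FPKM in the knockdown library, against 1.51 FPKM in the scramble library, on 63 (knockdown) and 139 (scramble) reads (2.13-fold lower, interval 1.57 to 2.92). CTNNA3, the alpha-catenin of heart and testis, was at 0.39 (knockdown) and 0.86 FPKM (scramble). PERP, a desmosome-associated membrane protein and target of p53, was higher at 38.5 (knockdown) and 18.7 FPKM (scramble), with 3720 (knockdown) and 1862 (scramble) reads (ratio 2.07, interval 1.95 to 2.19). It was higher alongside DSP and DSC2.

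Of 20 known regulators of cadherin genes 5 had a row, 4 higher and 1 lower, against 54.1% higher and 45.9% lower over all rows. KLF8, a repressor of E-cadherin, was at 5 FPKM in the knockdown library, against 2.49 FPKM in the scramble library, with 1018 (knockdown) and 520 (scramble) reads (ratio 2.03, interval 1.82 to 2.26). ZEB1, a further such repressor, was at 0.72 (knockdown) and 0.36 FPKM (scramble), on 108 (knockdown) and 54 (scramble) reads (ratio 2.07, interval 1.48 to 2.92). Its relative ZEB2 was at 0.27 FPKM on 57 reads, and in the scramble library it was listed at the floor of 0.01 FPKM. TWIST1, a mesoderm factor that also acts on E-cadherin, was at 0.74 (knockdown) and 0.13 FPKM (scramble), on 28 (knockdown) and 5 (scramble) reads (ratio 5.79, interval 2.21 to 19.2). SNAI3 was the lower one, at 3.59 (knockdown) and 9.10 FPKM (scramble), with 134 (knockdown) and 351 (scramble) reads (2.53-fold, interval 2.07 to 3.11). SNAI1, SNAI2, GRHL2 and OVOL2 had no row. ZEB1, ZEB2 and TWIST1 were each under 1 FPKM in both libraries.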

How the data were processed

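RNA from HES2 cells was sequenced on a BGISEQ-500 from 1 library per group, per the labels' protocols; groups follow the infection named there. Bowtie 0.12.2 and the build hg19 are named in the submitters' processing notes. How reads were counted and filtered, and with which strand setting, is not given in the sources used here. The authors' deposited table holds a level per library, read as FPKM because it scales with inferred reads per kilobase, with a lowest value of 0.01, the authors' log2 ratio, which equals log2 of the ratio of levels, and a p-value and false discovery rate (largest 0.00099) from their comparison.

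The p-values over the false discovery rates give whole ranks for 18489 genes tested. For each gene, whole reads were sought that give both levels and, within 1e-05 of its natural log, the deposited p-value as a Poisson comparison of 2 libraries (smaller tail, doubled). They were found for 1697 (88.1%) of the 1926 genes whose p-value is above 0. No count model was run, since the table gives no counts. The depth ratio was 1.0343 (scramble over knockdown), and the length offset 66 bases. Among members, 2 without a pair had a p-value of 0 and 10 had no match. The method was tested on simulated data. Intervals are exact (Clopper-Pearson) and cover counting error only, since reads are not independent molecules. Log2 ratios used a pseudocount of 0.1 FPKM, which understates low genes. Shared sequence is the percent of 31-base words of the GENCODE 29 transcript nearest in length that occur in any other gene; promoters are from RefSeq, GRCh38.p14. No sequence was lifted between builds.

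Members and lists were chosen with earlier results of these data known. The rule for named genes takes TFCP2L1, all PCDHG rows, other members at 1 FPKM or more, up to 2 further examples per role, and listed genes of the junction list. Members, regulators and markers named beyond it were chosen after their values were seen. Pseudocounts, filters, thresholds, read ratios and shared sequence were varied. Analyses used Python 3.11.15, scipy 1.17.1 and numpy 2.4.6.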

Additional observations from a re-analysis of the deposited data

How the results depend on the processing

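The 39 members kept their direction under each pseudocount, the deposited log2 ratio and, where available, inferred reads. This is no check, since a pseudocount or the deposited log2 ratio cannot turn a direction, and reads were sought only near the levels. With a pseudocount of 1 FPKM, 21 of the members moved by more than counting error. The counts of 16 higher and 9 lower members became 3 and 0 at 4-fold, and 6 and 5 with intervals wholly beyond 2-fold, which only members with a pair of reads can give. Without members of shared sequence 7 were higher, and likewise 7 without members lacking a pair (an alternative chosen after seeing the data). With a pseudocount of 1 FPKM, or at 3 FPKM or more, 5 were lower. Outside the PCDHG cluster the median log2 ratio of 1.06 was -1.21 at 1 FPKM or more, 0.35 with a pseudocount of 1 FPKM and 0.21 as a mean. The log2 ratio of summed PCDHG levels was 1.93, and 1.40 without PCDHGC3, also chosen after seeing the data. Without it the C-type share of the PCDHG rows was 17.1% (knockdown) and 10.06% (scramble), against 45.3% (knockdown) and 14.4% (scramble) with it. The cause of these shifts was not tested. No paired analysis was possible because there is 1 library per group. Members under 1 FPKM rest on as few as 4 reads in a library, and this depth limits their ratios.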

Other observations

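Beyond these families, the deposited annotation places 57 rows under its term for cell-cell adhesion, of which 32 are members and 25 are not. Of these 25, 10 were higher and 15 lower in the knockdown library, against 54.1% higher and 45.9% lower over all rows. Examples chosen after their values were seen are the receptor tyrosine kinases RET, at 28.8 FPKM in the knockdown library and 5.85 FPKM in the scramble library, and ROR2, at 22.1 (knockdown) and 6.44 FPKM (scramble), and the guidance molecule NTN1, at 15.5 (knockdown) and 2.54 FPKM (scramble). Lower ones were the synaptic adhesion genes NLGN3 at 2.35 (knockdown) and 5.75 FPKM (scramble) and ICAM5 at 1.40 (knockdown) and 4.60 FPKM (scramble), and MPZL2, an epithelial adhesion molecule, at 0.57 (knockdown) and 1.48 FPKM (scramble).

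The readthrough gene GJA9-MYCBP, which joins a connexin gene to its neighbour and whose symbol falls outside the rule, was at 0.18 (knockdown) and 0.03 FPKM (scramble), on 21 (knockdown) and 3 (scramble) reads (ratio 7.24, interval 2.16 to 37.9).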
